A study of Mus musculus with 2 samples.

Results

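Bone morphogenetic protein (BMP) signalling was described in the hindbrain of the mouse embryo through 10 genes: the ligands Bmp4 and Bmp7, the type I receptors Bmpr1a and Bmpr1b, and the transcriptional targets Id1, Id2, Id3, Id4, Msx1 and Msx2. The genes were chosen by symbol, as ligands, receptors and targets of the pathway, and they are 10 of the 43346 Ensembl genes in each gene table. Each symbol matched 1 row in both gene tables, and together the 10 genes have 25 annotated transcripts in each transcript table. Total RNA had been sequenced from 2 pools of hindbrain tissue, which the labels name as biological replicates of a single group. Pool 1 held hindbrains of 109 embryos and pool 2 those of 88 embryos, all of mouse strain B6NCrl at embryonic day 11.5, healthy, with male and female embryos combined and with no treatment or genetic change named. The starting material of a library was 10 ng of RNA above 200 nucleotides in size, to which synthetic spike-in RNA was added. The labels give no second condition, so levels, ratios within a library and the spread between the pools are described, with no test between groups.

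BMPs are secreted dimeric ligands that bring together type I and type II serine/threonine kinase receptors; the type II receptor activates the type I receptor, which phosphorylates Smad1, Smad5 and Smad9, and these enter the nucleus with Smad4. In the developing hindbrain and spinal cord, BMPs made by the roof plate and the overlying ectoderm pattern the dorsal neural tube. The Id genes and the Msx genes are among the best known direct targets: Id proteins are helix-loop-helix proteins without a DNA-binding basic region that hold E proteins away from DNA, and Msx proteins are homeodomain repressors of dorsal progenitors, roof plate and neural crest.

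Closely alike parts of the Id genes are shown first, since reads that could come from several family members would make the gene levels uncertain. The windows below are 90-base coding stretches, each within 1 exon of the leading transcript (GENCODE vM21 on mm10). The search ran along Id1 and kept the stretch whose best matches in the other Id genes were most alike to it. Likeness among Id2, Id3 and Id4 was not searched for. Capitals mark the bases shared by all 4 Id genes, 53 of 90. The Id windows lie in the helix-loop-helix region, at chr2:152736550-152736639 (plus strand) for Id1, chr12:25095781-25095870 (minus strand) for Id2, chr4:136144034-136144123 (plus strand) for Id3 and chr13:48261725-48261814 (plus strand) for Id4.
Id1: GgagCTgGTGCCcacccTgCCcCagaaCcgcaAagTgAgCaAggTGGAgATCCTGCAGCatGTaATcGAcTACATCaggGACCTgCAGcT
Id2: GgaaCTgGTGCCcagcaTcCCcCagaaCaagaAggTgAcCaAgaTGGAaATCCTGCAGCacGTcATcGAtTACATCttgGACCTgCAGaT
Id3: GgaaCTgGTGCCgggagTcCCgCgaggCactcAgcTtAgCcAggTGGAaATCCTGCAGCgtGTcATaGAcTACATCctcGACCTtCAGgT
Id4: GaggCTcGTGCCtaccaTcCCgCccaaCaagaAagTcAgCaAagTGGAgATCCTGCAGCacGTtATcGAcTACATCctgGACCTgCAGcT

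Between pairs of Id genes the windows were 67.8% (Id1 with Id3, and Id3 with Id4) to 81.1% (Id1 with Id2) identical. Over whole leading transcripts, the longest run of identical bases was 19 between any pair of Id genes (Id2 with Id3), 22 between Msx1 and Msx2, 16 between Bmpr1a and Bmpr1b, and 28 between Bmp4 and Bmp7. Of all stretches of 100 bases in the leading transcripts, none from 8 members occurred in another annotated gene. The exceptions were Bmpr1a, with 3.26% of its stretches shared with the antisense gene Gm17110, and Id4, with 0.293% shared with Gm49291. The read counts of all 10 genes were deposited with a posterior SD under 2 reads in both pools.

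The 10 genes covered a wide range of levels, with Id3, Id2 and Id1 at the top and the ligands and Bmpr1b at the bottom. All 10 were detected in both pools at a TPM (a level adjusted for transcript length and library depth) of 1 or more, against 33% of all 43346 Ensembl genes. The order of mean TPM was Id3, Id2, Id1, Msx1, Id4, Msx2, Bmpr1a, Bmp7, Bmpr1b and Bmp4. The values of the 2 pools overlapped between neighbours in that order for Bmpr1b and Bmp4 alone, and the order of that pair was opposite in the 2 pools. Id4 and Msx2 did not overlap across the pools, but within pool 2 their deposited TPM intervals did. The libraries held 45340440 and 41261544 expected counts, of which spike-ins took 7.41% in pool 1 and 10.7% in pool 2, and the 10 genes had between 387 and 11470 reads each. Of the summed TPM, spike-ins took 16.2% in pool 1 and 22.2% in pool 2. The TPM levels and sums given here are as deposited, so this share lowers them more in pool 2 than in pool 1.

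**Figure D1:**
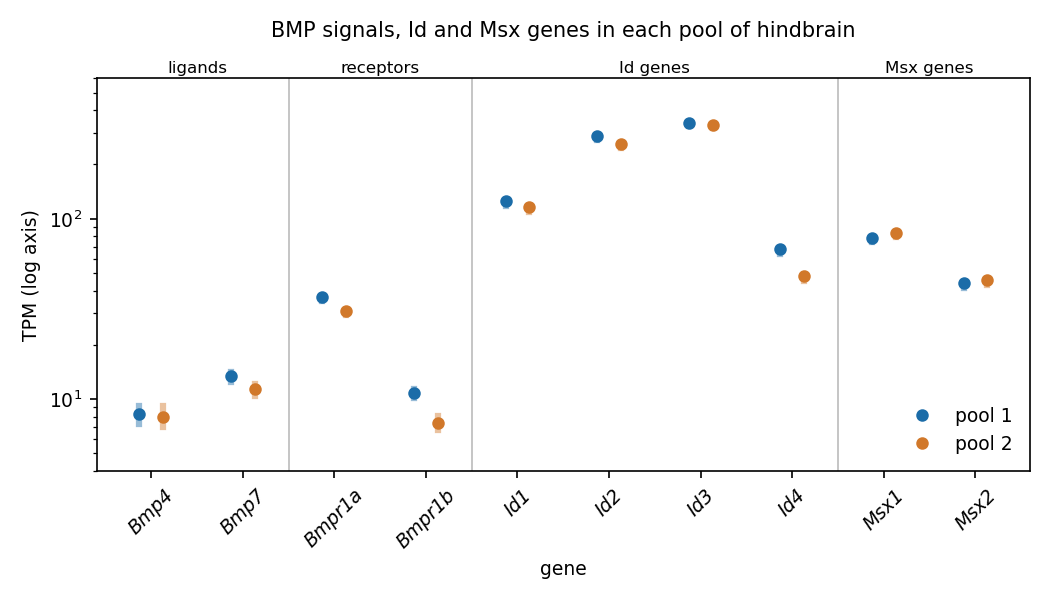
TPM (log axis) of the 10 genes in pool 1 (blue) and pool 2 (orange), points for the deposited values and pale bars for the deposited TPM intervals. Id3 is highest at 341.37 and 332.61 TPM, Bmp4 and Bmpr1b lie at the bottom, and the pools stand furthest apart for Bmpr1b and Id4.

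Bmp4 (ENSMUSG00000021835.10; mm10 chr14:46383520-46390669, minus strand), the ligand of dorsal ectoderm and roof plate, was at 8.25 TPM in pool 1 and 7.92 TPM in pool 2 (8.09 ± 0.233, SD, n = 2), from 432 and 387 reads. Bmp7 (ENSMUSG00000008999.7; chr2:172868012-172940321, minus strand), which is also made in the roof plate and can pair with Bmp4, was at 13.45 and 11.38 TPM (12.4 ± 1.46), from 1327 and 1068 reads. Bmp7 was above Bmp4 in both pools and their ranges did not overlap. The ratio of Bmp7 to Bmp4 within a library was 1.63 in pool 1 and 1.44 in pool 2, a mean log2 ratio of 0.61 ± 0.13 (SD, n = 2). Among the 13 ligand genes of the family, 5 were detected, and the summed level was 32.81 TPM in pool 1 and 28.81 TPM in pool 2. Bmp7 made up 40.2% ± 1.06 of that sum and Bmp4 26.3% ± 1.66, so these were the leading pair of ligands in both libraries. Bmp10, a ligand of the heart and vasculature, was listed at 0 in both.

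Bmpr1a (ENSMUSG00000021796.10; chr14:34410734-34503341, minus strand), the broadly expressed type I receptor also called ALK3, was at 36.67 TPM in pool 1 and 30.64 TPM in pool 2 (33.7 ± 4.26, SD, n = 2). Bmpr1b (ENSMUSG00000052430.11; chr3:141837136-142169425, minus strand), the type I receptor ALK6, was at 10.79 and 7.39 TPM (9.09 ± 2.40), from 1560 and 897 reads. Both receptors had their lower value in pool 2, and Bmpr1a was above Bmpr1b in each library. The ratio of Bmpr1a to Bmpr1b was 3.40 in pool 1 and 4.15 in pool 2, a mean log2 ratio of 1.91 ± 0.20. Of the 4 type I receptors of the pathway summed, Bmpr1a accounted for 66.5% ± 0.443 of TPM and Bmpr1b for 17.8% ± 2.38. The summed type I receptors were at 0.540 of the summed type II receptors in pool 1 and at 0.534 in pool 2.

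Id1 (ENSMUSG00000042745.9; chr2:152736251-152737410, plus strand) was at 124.76 TPM in pool 1 and 115.85 TPM in pool 2 (120 ± 6.30, SD, n = 2). Id2 (ENSMUSG00000020644.8; chr12:25093799-25097140, minus strand) was at 286.2 and 258.65 TPM (272 ± 19.5). Id3 (ENSMUSG00000007872.3; chr4:136143497-136145755, plus strand) was at 341.37 and 332.61 TPM (337 ± 6.19), which placed it at rank 364 of the 14942 genes that averaged 1 TPM or more. These 3 genes held the same order in both pools, and no pair of them overlapped. Id4 (ENSMUSG00000021379.1; chr13:48261228-48266026, plus strand), the family member tied most closely to neural progenitors, was at 67.7 TPM in pool 1 and 48.19 TPM in pool 2 (57.9 ± 13.8). Id4 was the lowest of the family in each library and had the widest relative spread of the 4.

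The 4 Id genes summed to 820.03 TPM in pool 1 and 755.3 TPM in pool 2 (788 ± 45.8). Id3 made up 42.8% ± 1.70 of the sum, Id2 34.6% ± 0.464, Id1 15.3% ± 0.0878 and Id4 7.32% ± 1.33. The share of Id1 was nearly the same in the 2 libraries, 15.2% and 15.3%, while that of Id4 was 8.26% in pool 1 and 6.38% in pool 2. The E proteins, which Id proteins bind, were all 3 detected: Tcf12 at 161.7 and 151.17 TPM, Tcf3 at 98.96 and 78.13 TPM, and Tcf4 at 82.15 and 74.05 TPM. The summed Id level was 2.39 times the summed E protein level in pool 1 and 2.49 times in pool 2, a ratio between transcripts that says nothing of protein amounts.

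Msx1 (ENSMUSG00000048450.10; chr5:37820485-37824583, minus strand) was at 77.87 TPM in pool 1 and 83.26 TPM in pool 2. Msx2 (ENSMUSG00000021469.9; chr13:53466884-53473074, minus strand) was at 43.89 and 45.65 TPM. Msx1 was above Msx2 in both libraries. In TPM these were the members with the higher value in pool 2. In FPKM, Bmp4 (5.35 and 5.42) and Id3 (221.42 and 227.8) were also higher there. Both measures are as deposited, not rescaled without the spike-ins. The ratio of Msx1 to Msx2 was 1.77 and 1.82, a mean log2 ratio of 0.85 ± 0.03 (SD, n = 2), the tightest of the 3 ratios between paired members. The related gene Msx3 (chr7:140046157-140049089, minus strand), whose expression is known from the dorsal neural tube, was at 104.74 TPM in pool 1 and 72.77 TPM in pool 2. It was 1.35 times the level of Msx1 in pool 1 and 0.874 times in pool 2, so the order of these 2 genes differed between the libraries.

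The upstream bases are shown for the 2 members that stood furthest apart between the pools, Id4 and Bmpr1b. They come from the RefSeq promoter table on GRCm38.p6, which had entries for 8 of the 10 members. The 250 bases before the start are chr13:48260866-48261115 (plus strand) for Id4, within the span of the antisense gene A330033J07Rik, and chr3:141982265-141982514 (minus strand) for Bmpr1b, before the first exon of its leading transcript. Capitals mark GGCGCC, a palindromic motif known to be bound by Smad1 and Smad5.
Id4: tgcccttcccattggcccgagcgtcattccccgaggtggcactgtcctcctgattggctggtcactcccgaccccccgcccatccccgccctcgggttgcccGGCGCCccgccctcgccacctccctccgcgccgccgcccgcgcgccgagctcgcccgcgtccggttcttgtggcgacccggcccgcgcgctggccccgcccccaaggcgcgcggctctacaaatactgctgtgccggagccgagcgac
Bmpr1b: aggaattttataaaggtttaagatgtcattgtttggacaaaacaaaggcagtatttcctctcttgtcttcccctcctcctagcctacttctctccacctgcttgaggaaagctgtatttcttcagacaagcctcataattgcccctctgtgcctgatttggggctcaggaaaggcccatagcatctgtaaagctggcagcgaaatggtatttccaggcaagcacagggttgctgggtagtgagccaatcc

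GGCGCC occurred in the 250 bases before the start of 3 members, Bmpr1a, Id2 and Id4, and in 9.59% of all 32851 RefSeq promoters over the same length. The shorter Smad motif CAGAC, or GTCTG on the other strand, was found for Id3 and Bmpr1b and in 42.2% of all promoters. The starts are those of RefSeq, and some lie inside the leading transcript. The Id3 entry, chr4:136143572-136143821, lies within the first exon of Id3-201 (chr4:136143497-136144178). The Msx2 entry and the Bmpr1b entries not shown lie within the spans of Msx2-201 and Bmpr1b-201. The Bmpr1a entry overlaps Bmpr1a-201 in part. The palindrome GTCTAGAC was found in none of the 10 entries of the members and in 0.167% of all promoters. The Id4 sequence held 35 CpG dinucleotides and that of Bmpr1a 36, against 1 in the Bmpr1b sequence shown and a median of 6 over all promoters. A match is a description of these letters and not evidence of a bound site.

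To compare the pools, the log2 ratio of TPM + 1 in pool 2 over pool 1 was taken relative to the median gene, which itself was at -0.11 on that scale. No member was more than 1.5-fold apart, against 5.98% of the 14942 genes that averaged 1 TPM or more. The median relative log2 ratio of the members was -0.02, with a range of -0.38 to 0.20, and the SD of the same ratio over all genes tested was 0.36. Of the members, 5 were above the median gene and 5 below it, with Id1 at 0.00. Msx1 had the highest relative log2 ratio at 0.20 and Msx2 followed at 0.16. At the other end Bmpr1b was at -0.38 and Id4 at -0.37, both 1.30-fold lower in pool 2. A fold of 1.2, chosen after these values were seen, was passed by these 2 members alone, both lower in pool 2. The same fold was passed by 19.5% of genes at a mean of 5 TPM or more in either direction and by 8.52% toward lower values in pool 2. The deposited TPM intervals of the 2 pools stood apart, after the median shift, for 6 members (Bmpr1a, Bmpr1b, Id3, Id4, Msx1 and Msx2) and for 35.4% of genes at a mean of 5 TPM or more. That share was not matched for read number, so the 2 figures are not directly comparable. Id3 stood apart at 1.05-fold from 11470 and 10719 reads, whereas Bmp7 did not at 1.08-fold from 1327 and 1068 reads. The sources used here do not give the level of these intervals, each describes 1 library, and the interval of Id2 in pool 1 (275 to 286.1 TPM) ends just below its TPM of 286.2. As each pool was sequenced once, no difference between them could be checked against repeat libraries.

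**Figure D2:**
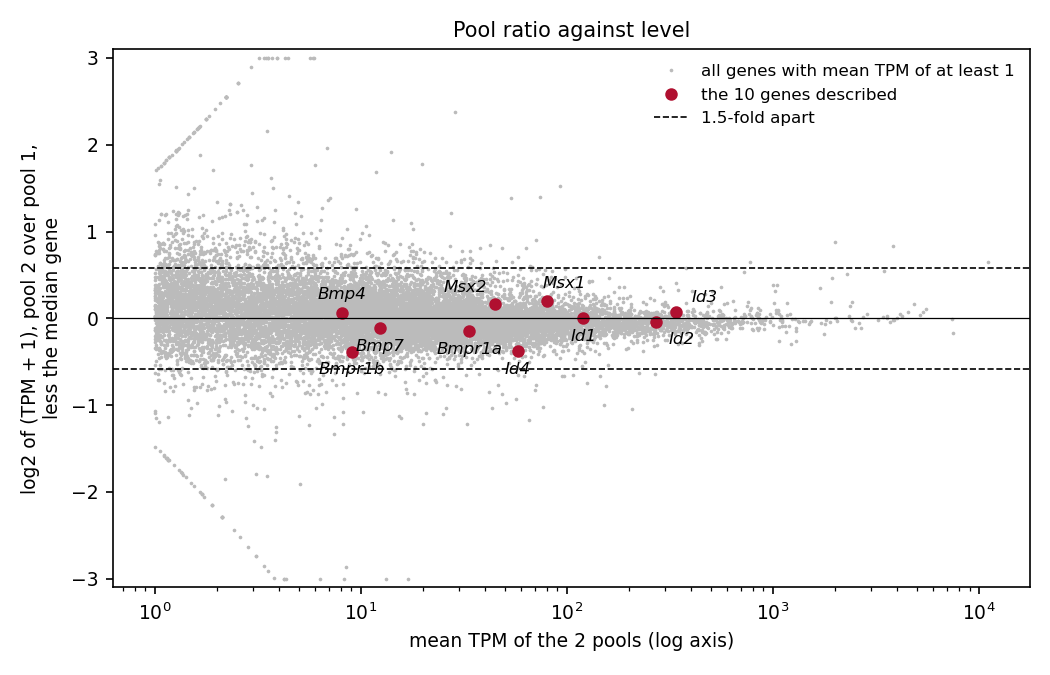
Log2 ratio of TPM + 1, pool 2 over pool 1 less the median gene, against the mean TPM of the 2 pools (log axis) for the 14942 genes that averaged 1 TPM or more (grey, drawn at the edge where past the axis) and the 10 members (red). All 10 lie between the dashed lines of 1.5-fold, with Bmpr1b at -0.38 and Id4 at -0.37 lowest and Msx1 at 0.20 highest.

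In bulk tissue, fewer cells of a type and less RNA per cell cannot be told apart. Marker lists of cell types that can carry these genes are therefore given by their summed TPM and by their median relative log2 ratio of pool 2 over pool 1. The sums are raw TPM and not relative to the median gene, which was at -0.11 in log2 of TPM + 1. The dorsal progenitor and rhombic lip list (7 of 7 detected) was at 147.75 and 145.47 TPM, with a median of 0.01. The progenitor list (8 of 8 detected) was at 2382.43 and 2149.95 TPM, with a median of -0.12 and 5 genes lower and 3 higher, from Hes5 at 202 and 109 TPM to Nes at 52.21 and 57.61 TPM. The roof plate and choroid plexus list (8 of 10 detected) was at 279.3 and 209.21 TPM, with a median of -0.15 and 4 genes on each side, from Lmx1a at 8.57 and 3.86 TPM to Rspo1 at 6.44 and 11.37 TPM. The neural crest and sensory ganglion list (7 of 8 detected) was at 151.55 and 114.58 TPM and had the lowest median, -0.36. The mesenchyme and meninges list (10 of 10 detected) was at 547.95 and 518.43 TPM, with a median of 0.10. The endothelium list (8 of 8 detected) was at 126.83 and 111.54 TPM, with a median of 0.03. The neuron list (8 of 8 detected) was at 1959.76 and 1747.32 TPM, with a median of -0.01. The otic and surface epithelium list (8 of 8 detected) was at 185.13 and 121.97 TPM, with a median of 0.07. Without Oc90, an otic gene at 105 and 47.6 TPM, its other 7 genes summed to 80.09 and 74.38 TPM. No marker of these lists was listed at 0 in both pools, and the part of these cell types in the levels of the 10 genes was not tested. As a check of the tissue label, 6 of 7 hindbrain markers were detected, with Egr2 below 1 TPM, against 2 of 7 forebrain markers. The detected forebrain markers were Lhx2, at 18.44 and 15.08 TPM, and Dlx2, at 1.67 and 1.34 TPM. Lhx2 was above the hindbrain markers Hoxa3, Hoxb3 and Hoxb1 in both pools.

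At the level of transcripts, the same transcript led in both pools for all 10 genes. Id2 and Id4 have 1 transcript in the tables, and the leading transcript held over 90% of the gene's TPM in both pools for 8 members. Bmp4 and Bmpr1b were the exceptions. The median share of the leading transcript over the 10 genes was 95.4% ± 0.0963 (SD, n = 2).

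Bmpr1b had the largest difference in transcript shares between the pools. Bmpr1b-201 (chr3:141837136-141982264, 5349 nucleotides) was at 9.16 TPM in pool 1 and 4.92 TPM in pool 2, which was 84.9% and 66.7% of the gene. Bmpr1b-203 (chr3:141840368-142169425, 2147 nucleotides) was at 0.52 TPM in pool 1 and 1.85 TPM in pool 2, which was 4.82% and 25.1% of the gene, from 31.38 and 107.2 expected reads. The deposited TPM intervals of the 2 pools did not overlap for either transcript, at 8.34 to 9.49 and 4.30 to 5.21 TPM for Bmpr1b-201 and at 0.260 to 0.867 and 1.12 to 2.41 TPM for Bmpr1b-203. The transcripts differ at both ends. On the minus strand Bmpr1b-201 extends to position 141837136 at its 3′ end and Bmpr1b-203 to 141840368. At the 5′ end, Bmpr1b-203 starts with a distal exon at chr3:142169145-142169425, which is spliced to chr3:141981921-141982013, a stretch within the first exon of Bmpr1b-201 (chr3:141981921-141982264). Both join the same next exons at chr3:141880357-141880516 and chr3:141871303-141871405. The gene's length in the tables is weighted by its transcripts and was 5014 nucleotides in pool 1 and 4396 in pool 2. The gap between the pools was therefore wider in reads than in TPM. With expected counts scaled by TMM, Bmpr1b was at -0.61 relative to the median gene, past 1.5-fold, as were 9.34% of the genes that averaged 1 TPM or more under that scaling.

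Bmp4-201 held 70.8% of the TPM of Bmp4 in pool 1 and 77.7% in pool 2. Bmp4-202, which lacks the exon at chr14:46387156-46387280, held 24.0% and 9.85%. That share rested on 89.16 expected reads with a posterior SD of 39.18 in pool 1 and on 33.85 with an SD of 27.57 in pool 2, so the difference was not detectable at this depth. Bmp4-203, annotated as a retained intron, held 5.21% and 12.5% from 5.29 and 11.65 expected reads.

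**Figure D3:**
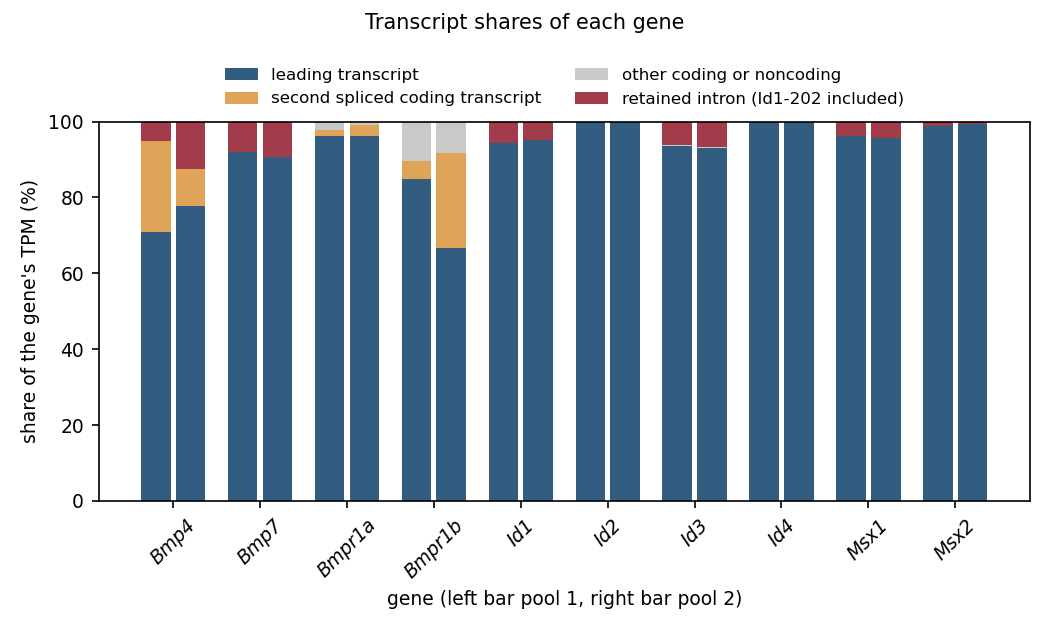
Share of each gene's TPM (%) by transcript class, left bar pool 1 and right bar pool 2. The leading transcript fills over 90% of both bars for 8 genes; for Bmpr1b it is 84.9% and 66.7%, with Bmpr1b-203 (second coding transcript) at 4.82% and 25.1%.

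Transcripts that keep an intron were quantified for several members. The boundary is shown for Id1 and Msx1, with the last 30 exon bases in lower case and the first 60 intron bases in capitals, at chr2:152736716-152736805 (plus strand) and chr5:37823805-37823894 (minus strand) of mm10.
Id1-202: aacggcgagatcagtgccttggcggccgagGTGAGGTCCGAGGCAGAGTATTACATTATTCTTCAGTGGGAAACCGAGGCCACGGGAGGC
Msx1-202: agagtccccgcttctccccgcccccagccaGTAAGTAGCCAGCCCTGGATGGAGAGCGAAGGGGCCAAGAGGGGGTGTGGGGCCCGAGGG

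Id1-202, a single-exon transcript annotated as protein-coding that keeps the 226-base intron of Id1, held 5.59% of the gene's TPM in pool 1 and 4.79% in pool 2. Msx1-202 reads into an intron of 2164 bases, of which it covers 1162, and held 3.74% and 4.35%. Id3-203 held 6.31% and 6.79%, from 404.74 and 407.53 expected reads. Bmp7-202 held 8.03% and 9.23%, but from only 27.86 and 26.2 expected reads with a posterior SD of 8.71 and 6.48. Msx2-202 held 1.21% and 0.570%, from 22.76 and 10.74 expected reads. Total RNA includes unspliced nuclear transcripts, and these shares do not separate such precursors from stable products.

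The rest of the pathway was described through 9 lists by role, which hold 79 genes, 69 of them besides the 10 members. Of the 69, 53 were detected in both pools, and 63 of the 79 when the members are counted. Among those of the 69 that averaged 1 TPM or more, 2 were over 1.5-fold higher in pool 2 (Ski and Pcsk6) and 1 was over 1.5-fold lower (Dlx5). Ski, Pcsk6 and Dlx5 were at 10.12, 0.87 and 4.7 TPM in pool 1 and at 14.49, 1.63 and 1.58 TPM in pool 2. The median relative log2 ratio of these genes was 0.07. The background of 5.98% over all genes applies here too.

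All 11 receptors and co-receptors were detected. The co-receptor Rgmb, at 70.3 TPM in pool 1 and 57.63 TPM in pool 2, and the type II receptor Acvr2b, at 56.2 and 44.66 TPM, were the most abundant. The endothelial type I receptor Acvrl1 was the lowest at 3.57 and 3.67 TPM, below both Bmpr1a and Bmpr1b. Of the 4 Smad transducers 3 were detected, with Smad1 at 53.05 and 39.63 TPM and Smad5 at 36.01 and 35 TPM. Smad9 was below the detection level at 0.42 and 0.46 TPM.

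All 8 intracellular inhibitors were detected. Skil, a corepressor of Smad complexes, was at 43.54 and 46.79 TPM and Tob1, an inhibitor of Smad signalling, at 27.62 and 26.75 TPM. The inhibitory Smad7, itself a BMP target, was the lowest at 4.14 and 4.52 TPM. Ski, a corepressor that binds Smad4, was at 10.12 TPM in pool 1 and 14.49 TPM in pool 2, a relative log2 ratio of 0.59. It was the one pathway gene averaging 5 TPM or more that passed 1.5-fold, though only just, at 1.502-fold. Sostdc1 fell just short at 1.48-fold.

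Of 17 secreted antagonists and modulators 13 were detected. Twsg1, which binds BMP and chordin, was the most abundant at 70.55 and 58.88 TPM. Sostdc1, an extracellular BMP antagonist, was second by the mean of the pools, at 13.63 and 19.04 TPM, though Nbl1 was above it in pool 1 at 14.73 TPM. Chrdl2 was the lowest of the list, at 0.23 TPM in pool 1 and listed at 0 in pool 2. The summed level of Bmp4 and Bmp7 was 0.151 of that of this whole list in pool 1 and 0.147 in pool 2. The list holds modulators as well as antagonists. It summed to 143.82 and 131.46 TPM, of which Twsg1 alone was 70.55 and 58.88 TPM. Of 6 processing proteases 3 were detected, led by Bmp1, which cleaves chordin, at 20.27 and 20.05 TPM, and Pcsk5, a proprotein convertase, at 4.01 and 3.12 TPM. Tll2 was at 0.51 and 0.53 TPM.

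All 12 other transcriptional targets were detected. Hey1, a bHLH repressor induced by BMP and by Notch signals, was at 42.6 and 38.08 TPM and Zfp703 at 15.73 and 15.8 TPM. Dlx3 was the lowest at 1.32 and 1.17 TPM. Every one of the 6 Id and Msx members was above Hey1, the highest gene of this list, in both libraries. In pool 1, however, the deposited TPM intervals of Msx2 (41.5 to 44.6) and Hey1 (40.3 to 43.6) overlapped.

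**Figure D4:**
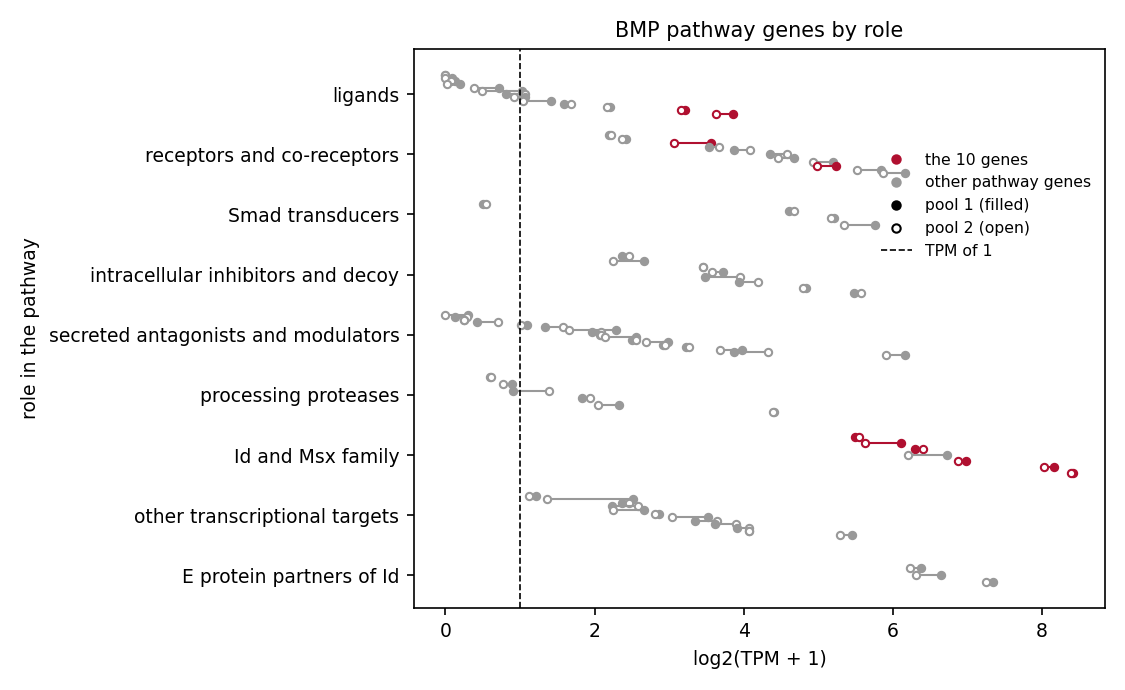
Level of each pathway gene as log2(TPM + 1) by role, filled points for pool 1 and open points for pool 2, the 10 members in red and a dashed line at a TPM of 1. Id2 and Id3 lie at the right edge, all 11 receptors and co-receptors lie right of the line, and 5 of the 13 ligands do in both pools.

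Reads of the members could also come from genes on the other strand, since the sources used here do not give the strand setting of the counting. Bmp4 overlaps Gm15217 (0 and 0.06 TPM) and Gm15222 (0.56 and 0.29 TPM), Bmpr1a overlaps Gm17110 (1.56 and 1.91 TPM), and Id4 overlaps A330033J07Rik (0.5 and 0.55 TPM). Each of these was far below its partner on the other strand. Gm49291, which also overlaps Id4 on the other strand, has no level in either pool, so it could not be compared. In the tables Id4 has a length of 1660 nucleotides, whereas GENCODE vM21 gives its transcript 3849, so its TPM is per the shorter model.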

How the data were processed

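Total RNA-seq gene and transcript tables of 2 hindbrain pools were used; per the labels, they were mapped to mm10. The sources used here name no aligner, quantifier or strand setting. The authors deposited expected counts (estimated reads per gene or transcript), TPM and FPKM, and, for each transcript, its percent of the gene's isoforms. The deposited TPM includes spike-in RNA, so its level shifts with the spike-in share. The files also give a posterior SD of each count and a TPM interval, which left out the deposited TPM for 3.86% of genes at 1 TPM or more in pool 1 and 3.21% in pool 2.

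Values were read with Python 3.11.15 and pandas 2.3.3; 42462 of 43346 Ensembl IDs matched a symbol. Detection meant 1 TPM or more in each pool. Pool ratios used a pseudocount of 1, genes averaging 1 TPM or more and the median gene as reference; the calculation was tested on simulated data. Expected counts, unrounded for the ratios, were scaled by TMM (edgeR 4.0.16) or DESeq2 1.42.0 size factors as alternatives only. Transcript types, exons and sequences came from GENCODE vM21, promoters from RefSeq.

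The members and gene lists were chosen with earlier results of these data known. In each pathway list, the text names the 2 highest and the lowest gene in mean TPM, plus any gene over 1.5-fold apart that averaged 5 TPM or more. Msx3, Pcsk6, Dlx5, the other ratios and the single marker genes were chosen after their values were seen. Separate pools are named as biological replicates in the labels, so each SD is over 2 libraries and its precision is low. All embryos belong to 1 group, so no test between groups was made.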

Additional observations from a re-analysis of the deposited data

How the results depend on the processing

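Under all alternatives the 10 members stayed detected, and the paired ratios and the highest Id share kept their direction. The count of members more than 1.5-fold apart, 0 as reported, was 1 (Bmpr1b) with expected counts scaled by TMM and 1 with DESeq2 size factors (9.34% of all genes tested under each), and 2 with a fold of 1.2, which was chosen after seeing the data. With expected counts not adjusted for length, the log2 ratio was 1.54 for Bmp7 over Bmp4, 2.22 for Bmpr1a over Bmpr1b and 0.49 for Msx1 over Msx2, as transcript lengths differ. Over protein-coding transcripts only, Msx1 over Msx2 was 0.80, the Id3 share 41.1% and the median leading transcript share 100%; that share was 97.0% from expected counts. The median pool ratio of the members ranged from -0.06 to 0.00. Of 90 alternative pool ratios of single members, 1 changed sign: Id1, at -0.04 with no filter on low values. The pathway count of 63 was 44 at a TPM of at least 5 and 68 at 0.5. Scaling without spike-ins put Bmpr1b at -0.39 and Id4 at -0.37. No paired analysis was possible because both pools belong to 1 group. Depth limits the minor transcripts, several of which rest on fewer than 50 reads.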
